A study of Mus musculus with 4 samples.

Results

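The Hox genes encode homeodomain transcription factors and lie side by side in the Hoxa, Hoxb, Hoxc and Hoxd clusters. The 38 genes described here were taken by name from the mouse gene annotation (GENCODE vM1, mm9). Each gene was represented by the CpG sites between 1 kb upstream of its 5' end and its 3' end. These windows hold 9024 CpGs, of which 894 (9.9%) had at least 10 reads in all 4 samples of the study. By comparison, 400195 CpG sites were covered to that depth across the genome and 13185 protein-coding gene records held at least 5 such sites. Hoxa lies on chromosome 6, Hoxb on 11, Hoxc on 15 and Hoxd on 2. Of the Hox genes, 35 held at least 5 sites, while Hoxb1 and Hoxc5 held 3 each and Hoxd4 held 2.

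The assay was RRBS-seq, where MspI cuts the DNA at CCGG to enrich CpG-rich fragments and bisulfite treatment separates methylated from unmethylated cytosines. WT and Chr4-cl KO mouse ES cells were compared. The KO cells lack a cluster of KRAB zinc finger protein genes on chromosome 4, originate from B6;129-Gt(ROSA)26Sor tm1(cre/ERT)Nat/J mice, and individual KO and WT clones had been picked after Cas9 nucleofection. Each genotype was grown in serum medium with 20% FCS and LIF, or for 1 week in 2i medium with Vitamin C (hereafter 2i), which lowers DNA methylation across the genome. There was 1 library per condition, and how many clones it represents is not given in the sources used here, so clone and genotype cannot be told apart. No difference below has a replicate check.

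Hox genes assign identity along the head-to-tail axis of the embryo, with paralog group 1 acting most anteriorly and group 13 most posteriorly, in the order of the genes on the chromosome. In ES cells they are held silent mainly by Polycomb complexes, which occupy the dense CpG islands covering much of each cluster. CpG islands bound by Polycomb are usually kept free of DNA methylation.

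To show what the measurements rest on, stretches of the mm9 reference (plus strand) are printed with the covered CpG sites in capitals. The first 5 are the intronic stretches where neighbouring sites were methylated in runs. By run, a covered site had a mean of 3 to 9.7 CpGs within 100 bp:

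Hoxb6 intron, chr11:96154793-96154983: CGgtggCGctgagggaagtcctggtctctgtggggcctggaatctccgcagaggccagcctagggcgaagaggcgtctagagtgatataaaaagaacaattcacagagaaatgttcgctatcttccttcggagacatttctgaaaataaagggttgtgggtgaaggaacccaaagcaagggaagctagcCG
Hoxc10 intron, chr15:102799146-102799251: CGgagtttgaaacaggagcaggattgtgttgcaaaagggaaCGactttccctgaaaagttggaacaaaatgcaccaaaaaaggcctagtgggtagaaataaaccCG
Hoxc4 intron, chr15:102857510-102857547: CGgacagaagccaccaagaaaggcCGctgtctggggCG
Hoxd3 intron, first run without its last site, chr2:74576793-74577092: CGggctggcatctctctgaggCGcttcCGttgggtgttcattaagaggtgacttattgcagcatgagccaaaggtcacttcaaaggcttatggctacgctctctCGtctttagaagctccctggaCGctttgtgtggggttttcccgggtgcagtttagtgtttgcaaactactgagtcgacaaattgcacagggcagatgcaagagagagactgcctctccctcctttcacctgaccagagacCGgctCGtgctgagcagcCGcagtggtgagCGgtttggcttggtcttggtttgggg
Hoxd3 intron, second run, chr2:74578022-74578235: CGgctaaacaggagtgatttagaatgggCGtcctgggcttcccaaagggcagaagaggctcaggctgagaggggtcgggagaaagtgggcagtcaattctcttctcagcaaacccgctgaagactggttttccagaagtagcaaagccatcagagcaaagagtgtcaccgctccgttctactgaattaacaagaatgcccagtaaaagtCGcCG

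The next stretch is from the Hoxa10 coding exon and held 15 covered sites, the most of any 101 bp of the clusters outside annotated UTRs. It shows the usual state of the clusters, with mean methylation of 1.97% (WT) and 4.37% (KO) in serum and 1.46% and 2.28% in 2i.

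Hoxa10 coding exon, chr6:52184523-52184623: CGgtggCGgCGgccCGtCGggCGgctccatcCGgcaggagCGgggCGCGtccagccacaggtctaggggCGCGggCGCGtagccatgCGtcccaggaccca

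The last is the Hoxd13 coding exon around the site with the largest genotype difference in serum, which is the middle CpG of the 3 that adjoin each other near the centre.

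Hoxd13 coding exon, chr2:74506472-74506572: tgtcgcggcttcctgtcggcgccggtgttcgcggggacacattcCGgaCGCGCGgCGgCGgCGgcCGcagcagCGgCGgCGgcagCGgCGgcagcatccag

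The libraries were of unequal depth, with 42672691 to 90649194 reads summed over CpG sites, and the median coverage of the Hox sites was 45 (WT) and 72 (KO) in serum, with 78.5 and 36 in 2i. Reads over the deleted span on chromosome 4 matched the genotype labels, with 820 and 1467 in the KO samples against 85282 and 105120 in WT. The region within 1 kb of the 5' end of the ES cell genes Klf4 and Sox2 had a mean methylation of 1.07% to 2.13% in all samples. The same region of Esrrb held 1 covered site, at 56.5%, 81%, 21.2% and 21.4% in the order WT serum, KO serum, WT 2i and KO 2i, and that of Pou5f1, Nanog and Zfp42 held none. The deposited tables of WT serum and KO 2i are each 2 tables joined end to end, unlike the other 2, and at the Hox sites no entry of the second tables reached 10 reads. CpG sites of the mitochondrial genome read as 9.43% methylated in WT serum (95% Wilson interval 8.2% to 10.84%, 1887 reads) and 0.99% to 1.71% in the other samples. What these differences between libraries contribute to the values below was not tested.

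The Hox clusters were lowly methylated in every sample. Averaged over the 894 sites, methylation in serum was 8.32% in the WT and 11.3% in the KO sample, and in 2i it was 2.98% and 1.93%. Pooling the reads gave 5.02% (95% Wilson interval 4.88% to 5.16%), 7.59% (7.44% to 7.73%), 3.23% (3.13% to 3.32%) and 1.74% (1.62% to 1.86%) in the same order, and these intervals cover counting error only, since reads of PCR copies are not independent. Covered sites in all other protein-coding gene windows averaged 19.4% and 22.3% in serum and 9.44% and 7.87% in 2i. In WT serum 687 Hox sites (76.8%) were below 10% and 26 (2.91%) were at 50% or more, against 72.6% and 19.7% of the sites of other gene windows. Between these limits lay 181 of the 894 Hox sites and 24322 of the 314446 other sites. The median site was at 2.82% in the Hox and 1.72% in the other windows. In serum the Hox sites thus held fewer highly methylated and more intermediate sites than other genes. Only 1 Hox site was at 50% or more in either 2i sample.

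Among the clusters, Hoxd had the highest mean in serum. Its 268 sites averaged 11.7% (WT) and 13.9% (KO) in serum and 3.48% and 1.92% in 2i. The 270 Hoxa sites averaged 7.57%, 10.3%, 2.38% and 1.88%, in the order WT serum, KO serum, WT 2i and KO 2i, which is kept for all values below. The 160 Hoxc sites averaged 7.53%, 11.3%, 3.34% and 2.91%. Hoxb was lowest in WT serum, KO serum and KO 2i, where its 196 sites averaged 5.38%, 8.95% and 1.21%, with 2.85% in WT 2i. With pooled reads the order in serum changed, as Hoxc was highest at 7.5% (WT) and 9.72% (KO), against 5.43% and 8.31% in Hoxd. Site-to-site variation was larger than any of these gaps, with an SD over sites of 9.49 to 18.8 points in WT serum, and the median site was at 1.84% to 3.33%.

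**Figure D1:**
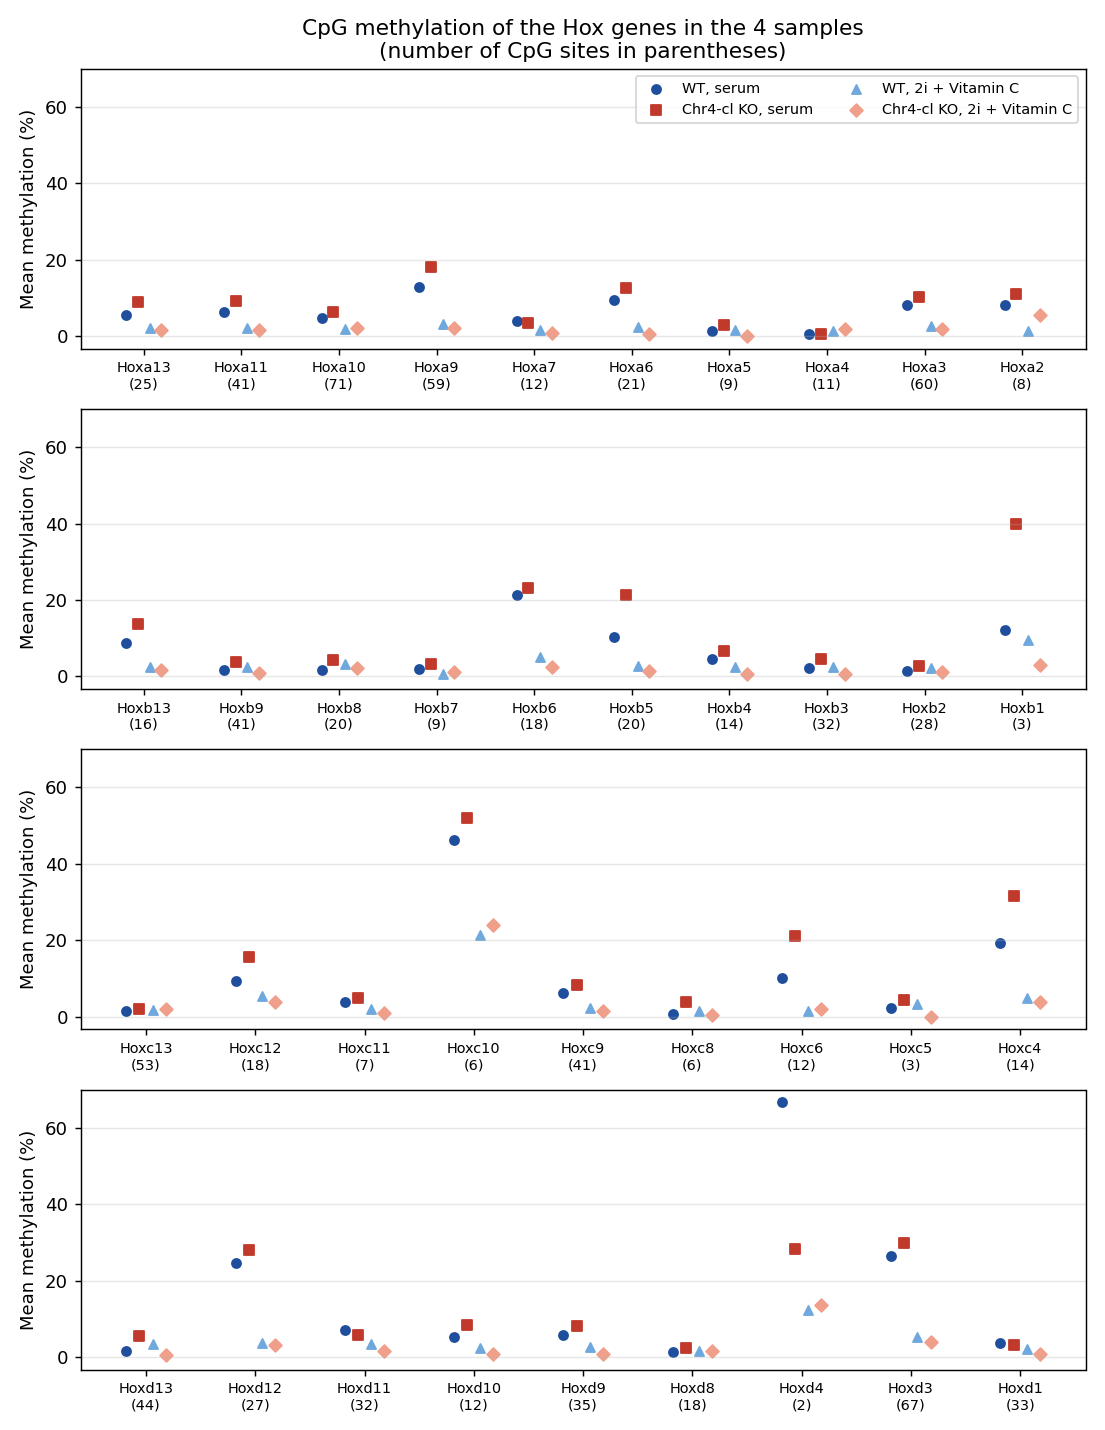
Mean CpG methylation (y axis, %) of each Hox gene (x axis, ordered from paralog group 13 on the left, with the number of CpG sites in parentheses) in the 4 samples, 1 panel per cluster and 1 point per library. Most genes sit near 0 in all samples, and Hoxc10, Hoxd3, Hoxd12, Hoxb6 and Hoxc4 stand out in serum. Hoxd4, Hoxb1 and Hoxc5 rest on 2 or 3 sites.

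The genes of a cluster differed far more from each other than the clusters did. In WT serum the 35 genes with 5 or more sites ranged from 0.61% to 46.3%, with a median of 5.59%, against a median of 9.5% for all 13185 gene records. The lowest and the highest of each cluster, by the mean of the 4 samples, were Hoxa4 and Hoxa9, Hoxb7 and Hoxb6, Hoxc8 and Hoxc10, and Hoxd8 and Hoxd3.

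Hoxc10 (ENSMUSG00000022484.7, chr15:102797227-102802324), which acts in the lumbar region and the hindlimb motor neurons, had the highest mean of all 35. Its 6 covered sites averaged 46.3%, 51.9%, 21.4% and 24.1%. They lie where CpGs are sparse, with a mean of 5.2 CpGs within 100 bp of a site. Hoxd3 (ENSMUSG00000079277.2, chr2:74549986-74586331), a gene of neck and hindbrain patterning, averaged 26.5%, 30%, 5.34% and 3.83% over 67 sites. Its gene record is long and contains Hoxd4, and without the 2 sites shared with Hoxd4 the means were 25.3%, 30%, 5.12% and 3.53%. Hoxb6, a trunk gene, averaged 21.2%, 23%, 5.02% and 2.53% over 18 sites, but its pooled reads gave only 6.72%, 9.02%, 4.2% and 2.47%. Hoxa9, which also drives growth of blood progenitors, averaged 12.9%, 18%, 3.06% and 1.97% over 59 sites. In these 4 genes both serum samples lay above both 2i samples.

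The samples of the low genes differed by at most a few points. Hoxa4, of the neck and upper trunk, averaged 0.61%, 0.43%, 1.22% and 1.89% over 11 sites, and was the only one of the 35 to be highest in KO 2i. Hoxb7 averaged 1.89%, 3.26%, 0.63% and 1.11% over 9 sites, and Hoxc8, a thoracic gene, 0.64%, 3.8%, 1.41% and 0.38% over 6. Hoxd8 averaged 1.22%, 2.36%, 1.52% and 1.47% over 18 sites in a very dense island, with a mean of 38.2 CpGs within 100 bp. In each of these genes all 4 samples lay below 4%, and both serum samples were above both 2i samples in Hoxb7 alone.

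Along the clusters there was no steady rise or fall from one end to the other, but local peaks. The posterior genes of groups 9 to 13 averaged 7.02% in WT serum over 528 sites, groups 5 to 8 7.31% over 143 sites, and groups 1 to 4 11.5% over 253 sites. The last value rests on Hoxd3 and Hoxc4, since groups 1 to 4 averaged 19% in Hoxd and 19.4% in Hoxc (the 14 Hoxc4 sites) but 8.33% in Hoxa and 2.79% in Hoxb. A site in the windows of 2 groups was counted in both, and the Hoxa value includes Hoxa5 and Hoxa6 sites because the long Hoxa3 record contains these genes. The 13 Hoxa3 sites shared with no other Hox gene averaged 18.2%. Within Hoxd, the window from 60 to 80 kb from the Hoxd13 end, which holds the Hoxd3 sites, averaged 26.5%, and the nearest windows with covered sites, from 20 to 40 kb and 80 to 100 kb, 4.48% and 3.59%. Within Hoxb, the window from 100 to 120 kb, with Hoxb6 and Hoxb5, averaged 15.5%, against 1.98% and 4.26% in its neighbours.

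**Figure D2:**
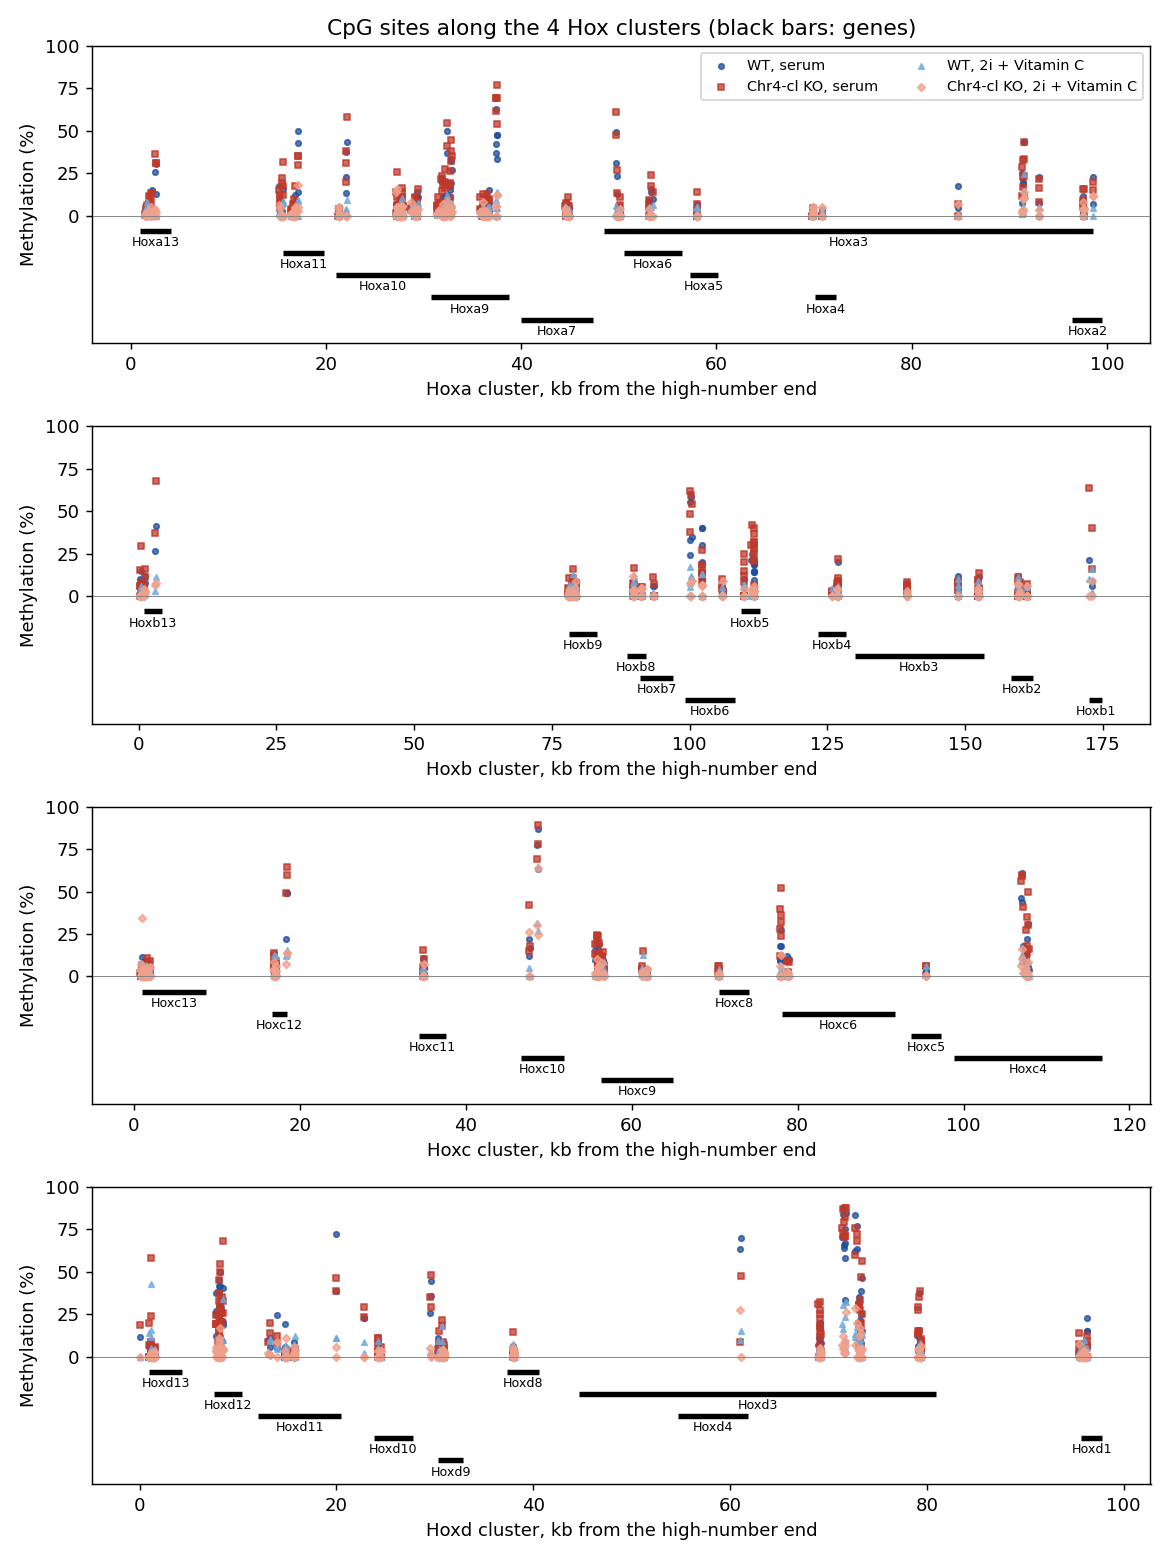
Methylation (y axis, %) of each of the 894 CpG sites along the Hox clusters (x axis, kb from the end that holds paralog group 13), 1 point per site and library, with the genes as black bars below 0. Serum points form narrow peaks in Hoxa9, Hoxb6, Hoxc10, Hoxc4, Hoxd12 and Hoxd3 between stretches near 0, and nearly all 2i points lie below 25%.

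Methylation was lower close to a 5' end and at high CpG density. Sites within 250 bp of the nearest Hox 5' end averaged 3.74%, 7.09%, 2.92% and 1.51% (127 sites), and those more than 5 kb away 17.1%, 20.8%, 4.24% and 2.84% (134 sites). By annotation, the 91 sites of 5' UTRs averaged 3.28% in WT serum, the 461 of coding exons 5.56%, the 85 upstream sites 6.91%, the 24 of 3' UTRs 8.08% and the 233 of introns 16.3%. Sites with more than 20 CpGs within 100 bp, 319 in all, averaged 2.07% in WT serum and 2.17% in WT 2i. The 92 sites with 5 to 8 CpGs averaged 25.1%, 32%, 6.08% and 4.77%.

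At equal density, sparse Hox sites were less methylated than sparse sites of other genes. In the class of 5 to 8 CpGs, 45488 sites of other protein-coding windows averaged 58.4%, 64.5%, 25.6% and 22.5%, above the Hox value in every sample. At 9 to 12 CpGs the Hox sites averaged 15.2% in WT serum and the others 29.3%. Above 16 CpGs the order was the opposite in serum, with 5.28% against 2.77% at 17 to 20 CpGs in WT cells and 2.07% against 1.48% above 20. Sites of 1 gene are not independent and the Hox sites come from 38 genes, so these are descriptions without a test.

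**Figure D3:**
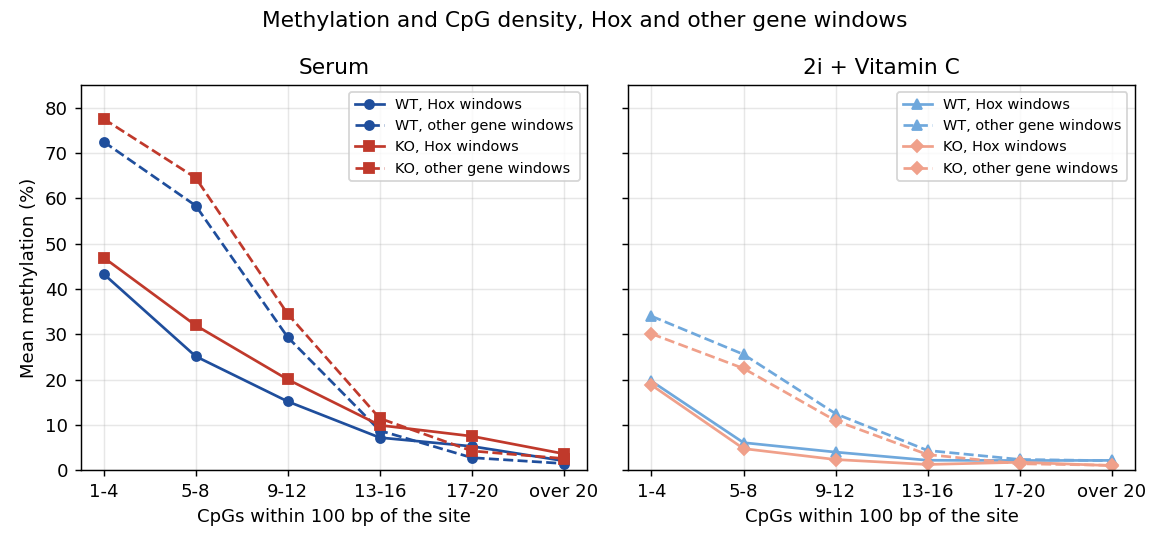
Mean methylation (y axis, %) by the number of CpGs within 100 bp of a site (x axis) for Hox windows (solid) and all other protein-coding windows (dashed), in serum (left) and 2i + Vitamin C (right). Below 13 CpGs the Hox lines lie under the others in all 4 samples, and the lowest class of the Hox lines holds 7 sites.

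Methylated runs were few among the covered sites, which are 9.9% of the CpGs in the windows. Runs of at least 3 neighbouring sites with a 4-sample mean of 25% or more numbered 6, with 26 sites in all, and were chosen by their methylation, so their levels only describe them. They averaged 63.2%, 71%, 15.9% and 12.1%, and the other 868 sites 6.68%, 9.5%, 2.6% and 1.62%. The 4-sample mean includes both 2i samples, and Hoxd12, at 24.5% (WT) and 28.1% (KO) in serum, holds no run. Of the 6, 5 are intronic and lie in Hoxb6, Hoxc10, Hoxc4 and, for 2 of them, Hoxd3, in the sequences printed above. The sixth is in Hoxa9 at chr6:52174433-52174452, in a coding exon that also overlaps an annotated UTR.

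The longest run was in the Hoxd3 intron at chr2:74576793-74577124, with 10 sites. It averaged 69%, 78.4%, 15.1% and 7.92%. The second Hoxd3 run, at chr2:74578022-74578235, averaged 71.3%, 69%, 13.2% and 13.9% over 4 sites. Both lost most of their methylation in 2i in either genotype. The Hoxc10 run at chr15:102799146-102799251 averaged 75.8%, 78.6%, 41% and 39.4% over 3 sites, and so kept more in 2i than any other run. One of its sites, at 64.6% in WT and 63.6% in KO cells, was the single Hox site at 50% or more in 2i.

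The remaining runs had intermediate levels in serum. The Hoxc4 run at chr15:102857510-102857547 averaged 50.2%, 58.4%, 11.3% and 10.9%. The Hoxb6 run at chr11:96154793-96154983 averaged 49.5%, 58.6%, 13.2% and 5.59%, and the Hoxa9 run 47.4%, 66.7%, 4.76% and 3.92%. The last 2 rest on 38 to 227 reads and 39 to 126 reads per sample. Read depth sets wide limits there, such as a 95% Wilson interval of 1.46% to 17.3% for the Hoxb6 run in KO 2i.

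**Figure D4:**
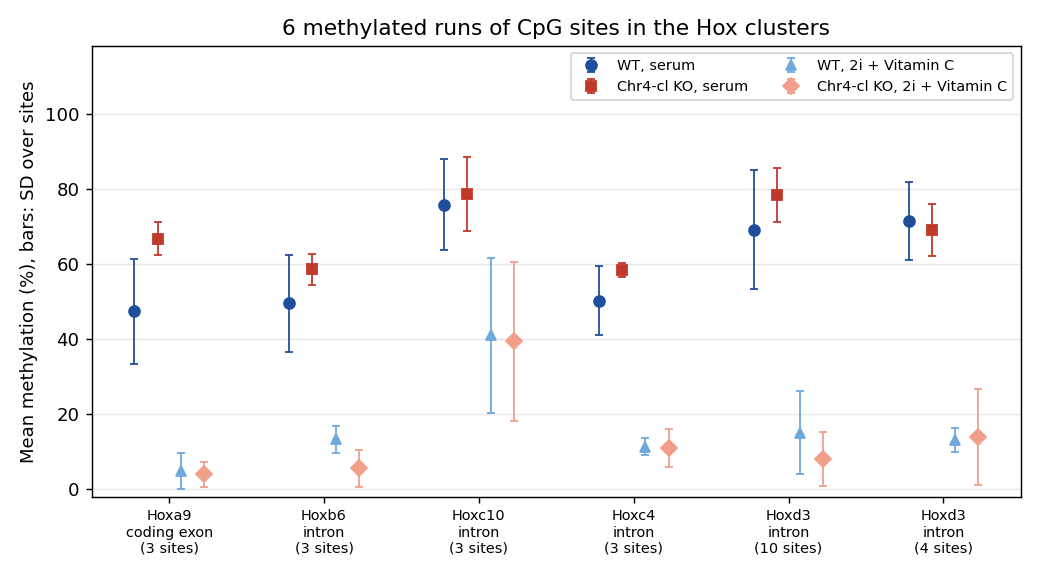
Mean methylation (y axis, %) of the 6 runs of methylated CpG sites (x axis, with gene, annotation and number of sites) in the 4 samples, with bars for the SD over the sites of a run. All serum points lie above 45%, all 2i points but those of Hoxc10 lie below 20%, and Hoxc10 stays near 40% in 2i.

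Methylation was lower in 2i than in serum across the clusters. The mean of the 894 sites changed by -5.34 points in WT and -9.36 points in KO cells, against -13.4 and -18.3 points over all covered CpG sites. Pooling the reads, which gives more weight to deeply covered sites, made the Hox values -1.79 and -5.85 points, and within 1 kb of a 5' end they were -2.67 and -6.67. Of the 35 Hox genes, 12 (34.3%) were lower by at least 5 points in WT and none was higher by as much, and with a coverage minimum of 20 reads 7 were lower. The same step was passed downwards by 47.7% of all gene records in WT and upwards by 0.159%. In KO cells 19 Hox genes (54.3%) were lower and none higher, where 57.8% of all records were lower and 0.0683% higher. The Hox share was thus below that of all records in WT and near it in KO cells.

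The largest falls in WT cells were in the 5 genes with the highest WT serum means of the 35. Hoxc10 changed by -24.95 points in WT and -27.8 in KO cells. Hoxd3 changed by -21.2 and -26.15 points. Hoxd12, a gene of the digits that averaged 24.5%, 28.1%, 3.56% and 3.21% over 27 sites without holding a run, changed by -20.9 and -24.9 points. The values were -16.2 and -20.5 points for Hoxb6, which did not pass the 5-point step in WT cells with pooled reads, and -14.5 and -27.8 for Hoxc4, of the cervical region. In 25 of the 35 genes both serum samples lay above both 2i samples, a share that was not counted over all gene records. The 10 exceptions, such as Hoxc13 of hair and nail with 1.45%, 2.11%, 1.82% and 1.92% over 53 sites, had at most 5.5% in any sample.

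Single sites showed the same direction. With Fisher's exact test on the reads of the 2 libraries, adjusted over all 400195 sites (Benjamini-Hochberg), a site was called where the adjusted p was under 0.05 and methylation changed by 20 points or more. By this rule 77 Hox sites (8.61%) lost methylation in 2i in WT cells and 1 gained it. Across all covered sites 26.0% lost and 0.149% gained it. In KO cells 117 Hox sites (13.1%) lost and 1 gained it, against 29.4% and 0.029% of all sites. This test compares 2 libraries and not conditions. The largest changes in WT cells were at Hoxd3 intron sites, with -69.8 points at chr2:74578050, -67.5 at chr2:74576820, -65 at chr2:74577067 and -62.9 at chr2:74576918, and at a Hoxd11 intron site, with -60.9 points at chr2:74525363. In KO cells they were at chr2:74577067, chr2:74577037, chr2:74576814 and chr2:74576897 in Hoxd3, with -78, -75, -74.8 and -73.7 points, and at chr6:52174433 in Hoxa9, with -69.2. Most of these sites are among the capitals of the first Hoxd3 sequence. Hoxd3 held 24 of the WT and 27 of the KO losses, Hoxd12 10 and 12, Hoxa9 11 and 16, and Hoxb5 3 and 11. The gain in WT was the Hoxd13 site at chr2:74506522 described below, and the gain in KO cells a site 65 bp upstream of Hoxc13 at chr15:102751469, at 11.4%, 6.88%, 7.14% and 34.5%, where the last value rests on 29 reads.

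Of the methylation of highly methylated sites, a smaller share was measured in 2i in the Hox clusters than in other gene windows, a description without a test. To keep the choice apart from the reading, sites at 50% or more in KO serum were followed in WT cells. The 43 Hox sites so chosen averaged 53.3% in WT serum and 13.7% in WT 2i, so 25.6% was kept and 1 site was still at 50% or more. The 68872 such sites of other gene windows averaged 78.2% and 34.8%, with 44.4% kept and 26.4% of sites still at 50% or more. With the genotypes exchanged, 26 Hox sites went from 65.8% to 13% in KO cells (19.7% kept), and 61910 other sites from 87.6% to 33.5% (38.2% kept). The gap was also present within 1 density class. With 5 to 8 CpGs within 100 bp, 21.4% was kept at 23 Hox sites and 44.2% at the other sites in WT cells, and 12.9% at 16 Hox sites and 37.6% in KO cells. Many of the chosen Hox sites lie close together in the 2 Hoxd3 runs, of 10 and 4 sites, so they are not independent. The 43 also include the Hoxd13 site at chr2:74506522, at 58.4% in KO serum and 0.18% in WT serum. Both Hox sets started from lower serum means than the other sites.

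In serum the Hox genes were slightly more methylated in the KO than in the WT sample. The difference was 2.96 points over all Hox sites, 2.78 in Hoxa, 3.58 in Hoxb, 3.8 in Hoxc and 2.2 in Hoxd, beside 3.12 over all covered CpG sites. Of the 35 genes, 31 were above 0, as were 90.5% of all gene records. The step of 5 points was passed upwards by 7 genes (20%), namely Hoxa9, Hoxb5, Hoxb13, Hoxc4, Hoxc6, Hoxc10 and Hoxc12, and downwards by none. With pooled reads 5 genes passed it upwards and 1 downwards, which was Hoxc10. Among all records 17.9% passed it upwards and 0.599% downwards, so the Hox share was near that of the genome.

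The largest serum differences were in Hoxc4 and the trunk genes Hoxc6 and Hoxb5. Hoxc4 (ENSMUSG00000075394.3, chr15:102849367-102867274) averaged 19.4% in WT and 31.6% in KO cells over 14 sites (2i 4.89% and 3.79%). Hoxc6 averaged 10% and 21.1% over 12 sites (2i 1.44% and 1.99%). Hoxb5 averaged 10.4% and 21.2% over 20 sites (2i 2.72% and 1.36%). All 3 were thus higher in KO serum by 10.8 to 12.2 points and within 1.36 points of each other between genotypes in 2i. Hoxc12 followed with 9.31%, 15.6%, 5.4% and 3.86% over 18 sites, and Hoxc10 with a difference of 5.56 points, whose direction turned with pooled reads (62.1% in WT and 50.9% in KO serum). Hoxb13, a gene of the tail and prostate, averaged 8.65%, 13.7%, 2.37% and 1.66% over 16 sites.

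In 2i the genotype difference had the other sign. KO minus WT was -1.06 points over all Hox sites, with -0.5 in Hoxa, -1.64 in Hoxb, -0.43 in Hoxc and -1.56 in Hoxd, beside -1.74 over all covered sites. The sign varied with distance from a CCGG. It was 0.18 points at a CCGG itself (113 sites), 0.47 at 1 to 5 bp (33 sites) and -2.85 at 6 to 10 bp (85 sites). Beyond 10 bp it was -0.48 to -1.32 points. Sites of other gene windows had -1.25, -0.85 and -2.94 points in the first 3 classes. Of the 35 genes, 28 were below 0, as were 85.6% of all records. None of the 35 passed 5 points in either direction, where 0.903% of all records passed it upwards and 6.81% downwards. The largest differences were 4.27 points in Hoxa2, a gene of the hindbrain and branchial arches (8 sites, 8.12%, 11.1%, 1.25% and 5.52%), -2.75 in Hoxd13, 2.71 in Hoxc10 (32.8% in WT and 27.9% in KO cells with pooled reads, so the direction turned here too), -2.5 in Hoxb6 and -2.01 in Hoxa6 (21 sites, 9.37%, 12.5%, 2.4% and 0.39%). Of the 35 genes, 25 were higher in the KO sample in serum and lower in 2i. The share of all records with both signs was not counted, but 90.5% were above 0 in serum and 85.6% below 0 in 2i. The count is therefore not read as a trait of the Hox genes.

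**Figure D5:**
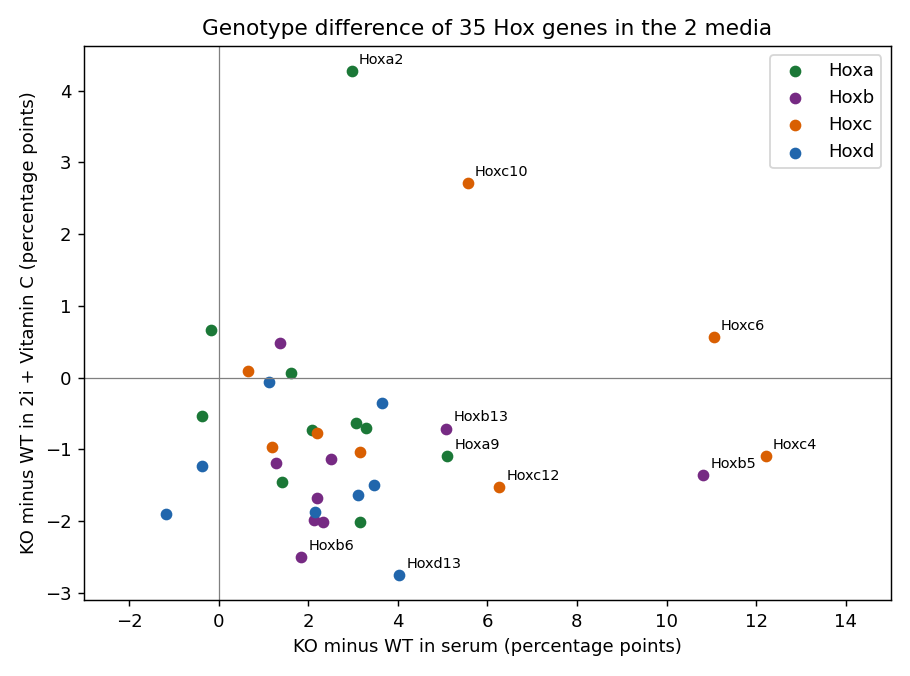
KO minus WT mean methylation in serum (x axis, percentage points) against the same in 2i + Vitamin C (y axis, percentage points) for the 35 Hox genes with 5 or more sites, coloured by cluster, with named genes past 5 points in serum or with the largest differences in 2i. Most points lie right of 0 and below 0, and the y axis covers a smaller range than the x axis.

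Few single sites differed between the genotypes. In serum 5 of the 894 Hox sites (0.559%) were higher in the KO sample and 1 (0.112%) lower, where 1.79% and 0.115% of all covered sites were. In 2i 1 was higher and 2 (0.224%) lower, where 0.0917% and 0.405% of all were. The strongest was in Hoxd13 (ENSMUSG00000001819.4, chr2:74506367-74509656), the most posterior gene of its cluster and needed for digits. This site at chr2:74506522 was methylated in 1 of 541 reads in WT serum (0.18%), 522 of 894 in KO serum (58.4%), 334 of 777 in WT 2i (43%) and 0 of 104 in KO 2i, which allows up to 2.88% from 3 reads (adjusted p = 1.66e-138 in serum and 2.37e-20 in 2i, Fisher's exact test). The samples thus fell into 2 pairs that cross genotype and medium. It lies 6 bp from a CCGG, where MspI cuts.

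The neighbouring sites in the printed 101 bp of Hoxd13 were lower, and most but not all were ordered alike. The CpG just before the strongest site was at 0.92%, 0.56%, 0.9% and 0.96%, without the pairing. The site at chr2:74506527 was at 1.66%, 24.3%, 15.7% and 1.92% (adjusted p = 1.25e-34 in serum, Fisher's exact test). Over the 13 covered sites of the printed 101 bp, the called sites among them, the means were 1.07%, 9.46%, 7.59% and 1.04%. Over all 44 sites, Hoxd13 averaged 1.47%, 5.5%, 3.39% and 0.64%. A 5' UTR site of Hoxd9, at chr2:74536069, showed the same pairing, with 1.39%, 21.6%, 18% and 0% (adjusted p = 0.002 in serum, Fisher's exact test), where 48 reads in KO 2i allow up to 6.25%.

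Of the other sites called in serum, those of Hoxb13 and Hoxc4 changed without that pairing. A Hoxb13 site in the 3' UTR at chr11:96057684 was at 41.4%, 67.7%, 11.4% and 8%, and a Hoxc4 intron site at chr15:102857708 at 17.6%, 40.7%, 2.99% and 1.89% (adjusted p = 0.000988 and 0.000176, Fisher's exact test). Both were thus higher in KO serum and low in both 2i samples. The one site lower in the KO sample was in the Hoxd4 coding exon at chr2:74566361, at 63.3% in WT serum and 8.89% in KO serum, with 9.59% and 27.3% in 2i (adjusted p = 8.45e-05 in serum, Fisher's exact test). There the same pairs separated with the order turned round. Hoxd4 has 2 covered sites, and 11 to 73 reads lie behind this one. The other 3 of the 5 largest serum differences, 48.8 and -33.5 points at Hoxd3 intron sites at chr2:74577037 and chr2:74578664 and 42.2 points at a Hoxb1 5' UTR site at chr11:96227079, rest on 11 to 28 reads in serum and were not called. In 2i the called sites were that of Hoxd13, the upstream site of Hoxc13 given above and a coding site of Hoxd12 at chr2:74513886, which was at 40.5%, 67.9%, 34% and 4.55% (adjusted p = 0.0141 in 2i, Fisher's exact test) and also lies 6 bp from a CCGG. The next in size, 21.1 points at chr15:102798169 in Hoxc10 and -20.9 at chr2:74577055 in Hoxd3, were not called.

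The crossed order was found at about the same share of Hox sites as of all covered sites. At 165 Hox sites (18.5%) both KO serum and WT 2i lay above both WT serum and KO 2i, and at 29 (3.2%) below. Over all covered sites the shares were 18.1% and 3.8%. Among the 85 Hox sites 6 to 10 bp from a CCGG they were 29.4% and 2.4%. All covered sites at that distance had 31.8% and 2%. The 113 Hox sites at a CCGG itself had 9.7% and 8%, and all covered sites there 6% and 5.6%. By gene mean the order held in 8 of the 35 genes, Hoxa5, Hoxb2, Hoxb3, Hoxb8, Hoxb9, Hoxc8, Hoxd8 and Hoxd13. The share of all gene records with this order was not counted, so nothing is read from the 8. The low pair are also the samples whose deposited tables are joined from 2, so an interaction of genotype with medium and a difference in how the samples were made into tables cannot be told apart.

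Genes linked to the Hox clusters by homology or function were placed beside them with the same 5-point step. The shares of all gene records past it, 47.7% (WT) and 57.8% (KO) lower in 2i and 17.9% higher in KO serum, stand beside every count of these short lists, and nothing is read from the counts alone. The even-skipped homologs Evx1 and Evx2, which adjoin Hoxa and Hoxd, were as low as the Hox genes, at 3.79%, 4.36%, 2.02% and 1.62% (11 sites) and 3.86%, 6.31%, 2.59% and 1.45% (90 sites), and passed the step in no difference. All 6 ParaHox genes had 5 or more sites. Of these, Cdx1, Cdx4, Gsx2 and Pdx1 were lower in 2i in WT cells, and Cdx2 as well in KO cells. Pdx1, of pancreas development, had the highest serum level of them, at 21.7% and 26.5%, with 5.82% and 5.47% in 2i. None of the 6 passed the step between genotypes.

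Among the Hox cofactors, Pknox1 and Pknox2 were lower in 2i in both genotypes, and Meis2 and Pbx2 in KO cells. Among the Polycomb genes, Cbx2, Cbx7, Jarid2, Phc2 and Suz12 were lower in 2i in both genotypes and Cbx8 in KO cells, while Cbx7, Cbx8 and Jarid2 were higher in the KO sample in serum and Cbx8 lower in 2i. Jarid2, a subunit that recruits the Polycomb complex, averaged 7.78%, 13.4%, 2.72% and 1.78% over 84 sites. Of 7 retinoic acid genes, which signal to Hox genes, 5 were lower in 2i in WT cells (Aldh1a2, Cyp26a1, Rara, Rarb and Rxra) and 6 in KO cells (also Rarg), and the receptors Rara, Rarb and Rarg were higher in the KO sample in serum. Of 5 trithorax genes, Ash2l, Men1, Mll1 and Mll2 were lower in 2i in both genotypes, and Men1 was lower in the KO sample in 2i.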

How the data were processed

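RRBS-seq libraries were made from 4 samples, 1 for each pairing of genotype (WT, Chr4-cl KO) and medium (serum, 2i + Vitamin C). Reads were trimmed with Trim Galore in its RRBS mode and at fixed read ends by the authors, who then mapped them to mm9 with Bismark and joined the complementary cytosines of each CpG dyad with a custom script. Versions are not given in the sources used here. Bisulfite reads cannot separate 5-methylcytosine from 5-hydroxymethylcytosine. The deposited tables hold, per CpG site, the read count, the methylated read count and the methylated fraction (0 to 1), and the fraction equalled the ratio of the counts within 6e-05 at every site. All 1873236 positions checked on the Hox chromosomes fell on CG in mm9. The WT serum and KO 2i tables are 2 tables joined end to end, with fractions of 12 decimals in the first, and 332 and 830 repeated entries of theirs were dropped.

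From the counts, percent methylation was computed at CpG sites with at least 10 reads in all 4 samples, the coverage minimum of the study. At 10 reads 1 read is worth 10 points, so means over sites were used for genes with at least 5 sites. A gene was counted as changed at 5 points or more, without a test. Sites were tested with the two-sided Fisher's exact test on the whole table with Benjamini-Hochberg adjustment (Python 3.11.15, scipy 1.17.1, numpy 2.4.6, pandas 2.3.3), and called at an adjusted p under 0.05 and 20 points. The site test was checked on simulated counts. Runs were at least 3 neighbouring sites, gaps of at most 500 bp, with a 4-sample mean of 25% or more.

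Named were the highest and lowest gene of each cluster, the 5 genes with the largest value of each difference, the genes under 5 sites, called sites, the 5 sites with the largest change in each difference, all runs, and genes of the other lists past 5 points, some of which are not reported here. Other genes and sites shown as examples were chosen after their values were seen. The members and lists were chosen with earlier results of these data known. Alternatives covered the coverage minimum, pooled reads, site subsets, call sizes and run limits, and leaving out sites 6 to 10 bp from a CCGG was added after seeing the data. Wilson intervals and floors cover counting error only.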

Additional observations from a re-analysis of the deposited data

Results flagged for a closer look

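Several genotype differences had opposite signs in the 2 media, and none of these contrasts between media was tested, since there is 1 library per condition. KO minus WT was 2.78 points in serum and -0.5 in 2i + Vitamin C in Hoxa, 3.58 and -1.64 in Hoxb, 3.8 and -0.43 in Hoxc, and 2.2 and -1.56 in Hoxd. At the Hoxd13 site at chr2:74506522 it was 58.2 points in serum and -42.99 in 2i + Vitamin C, and at the Hoxd12 site at chr2:74513886 it was 27.3 and -29.45. Both sites lie 6 bp from a CCGG. The sign change was shared by all covered CpG sites, at 3.12 and -1.74 points.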

How the results depend on the processing

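No difference over all Hox sites changed sign under any alternative run, but their sizes moved. The levels below are in the order WT serum, KO serum, WT 2i and KO 2i. Pooled reads gave 5.02%, 7.59%, 3.23% and 1.74%, so the fall in 2i was -1.79 points in WT and -5.85 in KO cells, and KO minus WT 2.57 in serum and -1.49 in 2i. A minimum of 5 reads gave 8.94%, 12% and 3.21% in the first 3 samples, 2i minus serum of -5.73 and -10.1 points, and -1.26 for KO minus WT in 2i. A minimum of 20 reads gave 6.8%, 9.58% and 2.8%, with -4 and -7.75 points, and 7 in place of 12 genes lower in 2i in WT cells. Sites covered in the sample alone gave 9.82%, 12.7% and 3.7%, with -6.12, -10.6 and, for KO minus WT in 2i, -1.67. Within 1 kb of a 5' end the levels were 5.11%, 8.03%, 2.44% and 1.36%, and the falls -2.67 and -6.67 points. Farther away they were 11.3%, 14.4%, 3.5% and 2.46%, and the falls -7.85 and -11.9. Without the sites 6 to 10 bp from a CCGG, an alternative chosen after seeing the data, WT serum was 8.53% and WT 2i 2.87%, the fall in WT -5.67, and KO minus WT 2.74 in serum and -0.87 in 2i. Adding up repeated positions and leaving out the sites of highest coverage changed no all-Hox value, and the second left out no Hox site, so neither is a check of these values.

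A step of 10 points left 3 genes higher in KO serum, and 5 (WT) and 11 (KO) lower in 2i. With pooled reads 1 gene, Hoxc10, was lower in KO serum, and with genes of 3 sites 1, Hoxb1, was lower in KO 2i. For sites, a step of 10 points gave 16 gains in KO serum, 6 losses in KO 2i and 8 gains in WT 2i over serum. With 20 points and no test there were 31 gains and 7 losses in KO serum and 2 gains in KO 2i. Sites covered only in the libraries compared gave 135 losses and 2 gains in 2i in WT cells. Thinning to equal depth gave 2 gains in WT 2i and 0 gains for both KO minus WT in 2i and 2i minus serum in KO cells. Runs numbered 11 with 48 sites at a 4-sample mean of 15%, and 35% left 15 sites in runs. The causes of these moves were not tested. No paired analysis was possible because the labels carry no replicate numbers and each condition has 1 library. Depth limits KO 2i most, where the median Hox site had 36 reads.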
